A study of Mus musculus with 8 samples.

Results

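Matrix metalloproteinases, their tissue inhibitors and the related sheddase gene Adam8 were followed in mouse peritoneal macrophages over 4 h of lipopolysaccharide (LPS). The set was chosen by name, with earlier results of these data known, so counts over it are descriptions. It comprised 10 genes, of 18193 genes with a single-symbol probe set on the array. The members were Mmp8, Mmp9, Mmp12, Mmp13, Mmp14, Mmp19, Timp1, Timp2, Timp3 and Adam8, measured by 22 probe sets. The donors were either wild type or labelled Zc3h12a-/-, and all had been injected with thioglycollate, an irritant that brings macrophages to the peritoneum. The cells were left unstimulated (0 h) or given 100 ng/ml LPS, the bacterial cell wall component sensed by TLR4, for 1, 2 or 4 h. Each of the 8 combinations of genotype and time was measured on 1 Affymetrix array, so no group had a replicate. Every LPS comparison below is against 0 h. No array without LPS was taken at 1, 2 or 4 h, so LPS cannot be told apart from time since 0 h. The sources used here do not give the age or number of the mice, or say whether animals were pooled. The p-values below therefore measure only the spread between these arrays. The 4 times serve as repeats of the genotype contrast and the 2 genotypes as repeats of the LPS contrast. That spread is the departure of the arrays from an additive fit of time and genotype, moderated across all genes. A genotype difference that changes with time thus counts as error in that fit.

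Matrix metalloproteinases (MMPs) are zinc-dependent endopeptidases that cleave collagens, elastin, basement membrane and many surface and secreted proteins. Most are released as inactive precursors, in which a cysteine of the propeptide occupies the catalytic zinc, and are activated outside the cell or, for membrane-anchored members, along the secretory route. Tissue inhibitors of metalloproteinases (TIMPs) bind the active site and block it, so the balance of both families sets the net proteolysis around a macrophage. The product of Zc3h12a, Regnase-1, is a ribonuclease that destroys mRNAs of inflammatory genes.

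The deposited values are log2 values from RMA, and every level and difference below is on that scale unless a fold is given. Array medians lay between 3.14 and 3.21, and the pairwise Pearson correlations of the arrays between 0.933 and 0.988. The brighter Zc3h12a probe set averaged 7.90 in wild type and 7.92 in the arrays labelled knockout. The position of this probe set relative to the deleted part is not known here, so it checks nothing, and the arrays are called labelled knockout throughout. The macrophage genes Lyz2, Cd68 and Csf1r read 12.60 to 13.64 over the 8 arrays, while Itgam read 5.08 to 6.70. The summed level of 10 macrophage markers, to which the brightest add the most, lay between 15.11 and 15.25 in wild type and between 15.13 and 15.32 in labelled knockout. Within that list Adgre1 (0.71), Itgam (0.90) and Mrc1 (1.07) were higher and Fcgr1 (-0.87) lower in labelled knockout. Of 12540 genes kept after a filter on low values, the share of calls that were upward depended on the scaling between arrays. For the genotype comparison it was 35.3% as deposited, 46.7% after cyclic loess and 25.1% after centring on 9 housekeeping genes. For LPS at 1 h it was 36.8%, 50.1% and 59.2%, at 2 h 28.6%, 39.6% and 65.8%, and at 4 h 32.9%, 41.9% and 70.7%. The median change of all genes at 4 h was -0.12 as deposited and 0.28 after that centring. Of the 9 housekeeping genes, 3 were themselves called lower at 2 h and 4 at 4 h, with 0 higher at either time. Centring on them therefore lifts the LPS values of all genes.

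At every time after LPS, 3 of the 10 members were higher than at 0 h. These were the collagenase gene Mmp13, the membrane-type metalloproteinase gene Mmp14 and the inhibitor gene Timp1. By limma, 3 members were higher at 1 h and 0 lower, 3 higher and 1 lower at 2 h, and 4 higher and 4 lower at 4 h. The same test called 10.5% of all kept genes at 1 h (3.85% higher and 6.62% lower), 41.8% at 2 h (12% and 29.8%) and 43.8% at 4 h (14.4% and 29.4%). The 2 h count of 4 in 10 lay near that background. The 3 LPS comparisons share the 0 h arrays. The median change of the members was -0.048, -0.081 and 0.057 at 1, 2 and 4 h, beside -0.088, -0.16 and -0.12 for all kept genes. All 10 members passed the filter on low values, which each also passed on the 4 arrays of either genotype alone.

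Mmp13, collagenase-3, which cleaves fibrillar collagen, had wild-type readings of 6.47 before LPS, then 8.13 at 1 h, 10.03 at 2 h and finally 10.22. The labelled-knockout readings were 8.06, 9.56, 11.28 and 11.23 in the same order of times, which the other genes below follow. The level climbed up to 2 h in both genotypes and then levelled off. With both genotypes together, Mmp13 was higher than at 0 h by 1.58 at 1 h (SE 0.16, adjusted p = 0.00215), by 3.39 at 2 h and by 3.46 at 4 h (SE 0.16, adjusted p = 2.45e-05), an 11-fold difference.

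Timp1, a secreted inhibitor of most soluble MMPs, had the largest LPS change of the 10 members. It read 6.25, 8.64, 10.35 and 11.13 in wild type and 7.45, 9.14, 10.58 and 11.22 in labelled knockout. Unlike for Mmp13, the reading at 4 h was the highest of the 4 times in both genotypes. Timp1 rose by 2.04 at 1 h (SE 0.26, adjusted p = 0.00583), by 3.62 at 2 h and by 4.32 at 4 h (SE 0.26, adjusted p = 6.33e-05), a 20-fold difference at 4 h.

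Mmp14 encodes MT1-MMP, a membrane-anchored enzyme that cleaves collagen at the cell surface and activates the MMP2 precursor together with TIMP2. Its brightest probe set read 6.66, 7.66, 8.88 and 9.32 in wild type and 5.91, 7.02, 7.90 and 8.48 in labelled knockout. The rise continued to 4 h, and the labelled-knockout line ran below wild type throughout. Mmp14 rose by 1.05 at 1 h (SE 0.12, adjusted p = 0.00391), by 2.10 at 2 h and by 2.61 at 4 h (SE 0.12, adjusted p = 2.61e-05), a 6.1-fold difference at 4 h. The dimmest of 3 Mmp14 probe sets did not pass at 1 and 2 h when tested on its own (adjusted p = 0.852 and 0.297). No other alternative that could be run ended any of these 9 calls of Mmp13, Timp1 and Mmp14.

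**Figure D1:**
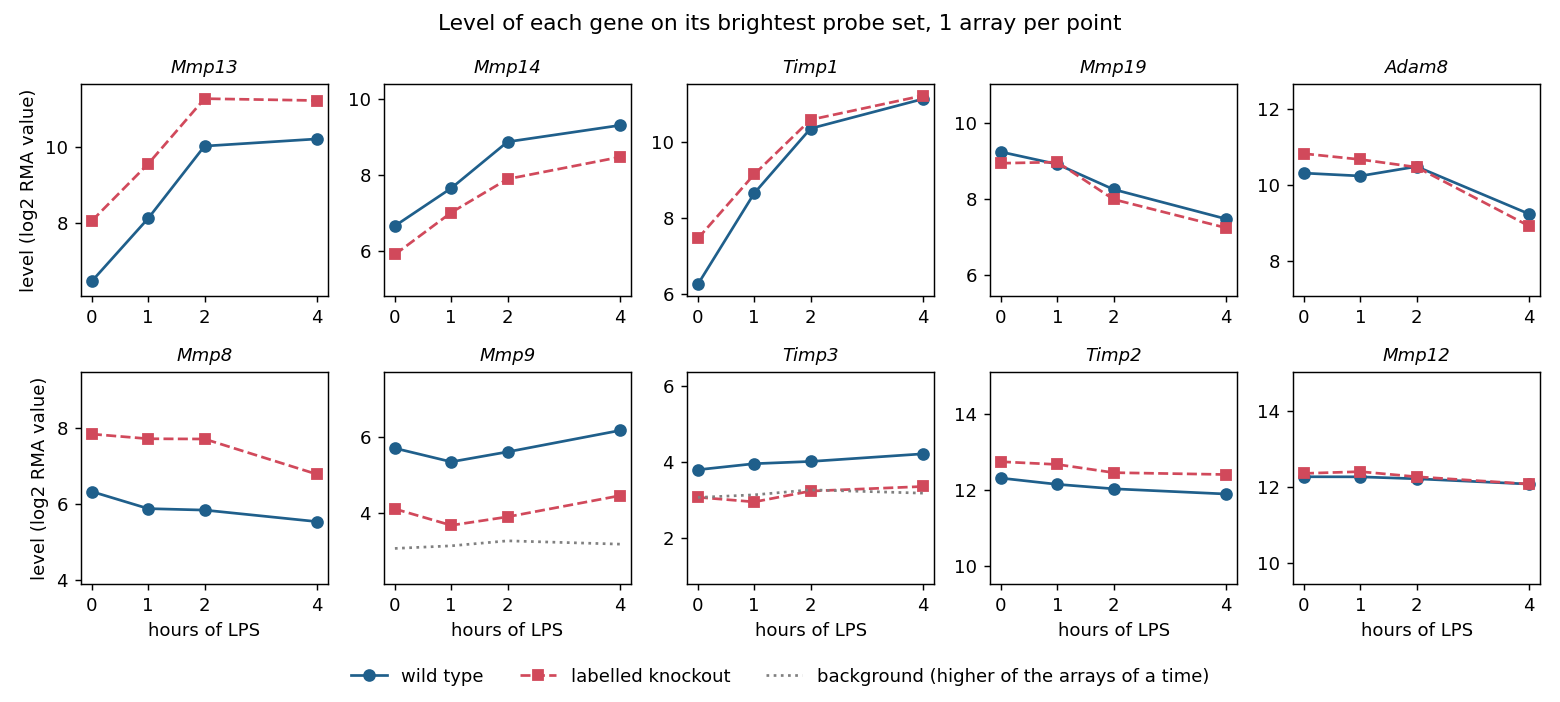
Level of each of the 10 genes on its brightest probe set (vertical axis, log2 RMA value, the same span in every panel) against hours of LPS, with 1 array per point, wild type as circles and labelled knockout as squares. Mmp13, Mmp14 and Timp1 climb, and Mmp19 and Adam8 fall. In Mmp8, Mmp9, Timp2 and Timp3 the readings of the genotypes do not overlap. The dotted line is the higher background of the arrays of each time, and of these genes Timp3 lies closest to it.

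Mmp19 and Adam8 moved down. Mmp19, a secreted enzyme that cleaves basement membrane proteins, read 9.24, 8.92, 8.25 and 7.47 in wild type and 8.94, 8.97, 7.99 and 7.24 in labelled knockout. Both genotypes had lower readings at 2 h than at 1 h and lower again at 4 h. Mmp19 fell by 0.97 at 2 h (SE 0.13, adjusted p = 0.00187) and by 1.74 at 4 h (SE 0.13, adjusted p = 0.000128), while at 1 h it differed by -0.15 (adjusted p = 0.53).

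Adam8, a membrane-anchored sheddase of myeloid cells, read 10.31, 10.24, 10.48 and 9.23 in wild type and 10.82, 10.67, 10.47 and 8.92 in labelled knockout. Its drop appeared between 2 and 4 h in both genotypes. Adam8 differed by -0.11 at 1 h and -0.092 at 2 h (adjusted p = 0.788 and 0.753) and fell by 1.49 at 4 h (SE 0.22, adjusted p = 0.00194).

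Smaller changes at 4 h were seen in Mmp8, Mmp9 and Timp2. Mmp8 encodes neutrophil collagenase and fell by 0.93 (SE 0.18, adjusted p = 0.0062), a call that did not hold when the 0 h array of the wild type was left out (adjusted p = 0.0525). Mmp9 encodes gelatinase B, which cleaves denatured collagen and type IV collagen. It rose by 0.41 at 4 h (SE 0.10, adjusted p = 0.0193), after differences of -0.39 at 1 h and -0.15 at 2 h that did not pass. The Mmp9 call was lost with trend and robust settings (adjusted p = 0.0942) and without any 1 of the 4 arrays of 0 and 4 h (adjusted p between 0.0638 and 0.127). After centring on housekeeping genes the 4 h value of Mmp9 was 0.81 (adjusted p = 0.00157) and after cyclic loess 0.62, and its 1 h value passed with the filter at the 75th percentile (adjusted p = 0.0332).

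Timp2 encodes an inhibitor that also takes part in MMP2 activation. On its brightest probe set it fell by 0.38 at 4 h (SE 0.10, adjusted p = 0.0262). That direction depended on scaling. The 4 h value was 0.020 after centring on housekeeping genes (adjusted p = 0.879), 4 of which fell at 4 h themselves. After cyclic loess it was -0.27 (adjusted p = 0.0819). The call was also lost without any 1 of the 0 and 4 h arrays (adjusted p up to 0.141). Larger decreases on 3 of its other probe sets are described below.

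Mmp12 and Timp3 did not pass in any LPS comparison as deposited. Mmp12, macrophage elastase, stayed between 12.09 and 12.41 on all 8 arrays, a span of 0.33. At 4 h Mmp12 differed by -0.24 (SE 0.10, adjusted p = 0.115), which passed with trend and robust settings (adjusted p = 0.00291) and turned to 0.16 after centring on housekeeping genes. Timp3, an inhibitor held in the extracellular matrix, differed by 0.35 at 4 h (SE 0.12, adjusted p = 0.051). That value passed after cyclic loess (0.44, adjusted p = 0.027) and after centring on housekeeping genes (0.75, adjusted p = 0.00333). That centring also took Timp3 past the threshold at 2 h (0.52, adjusted p = 0.017).

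**Figure D2:**
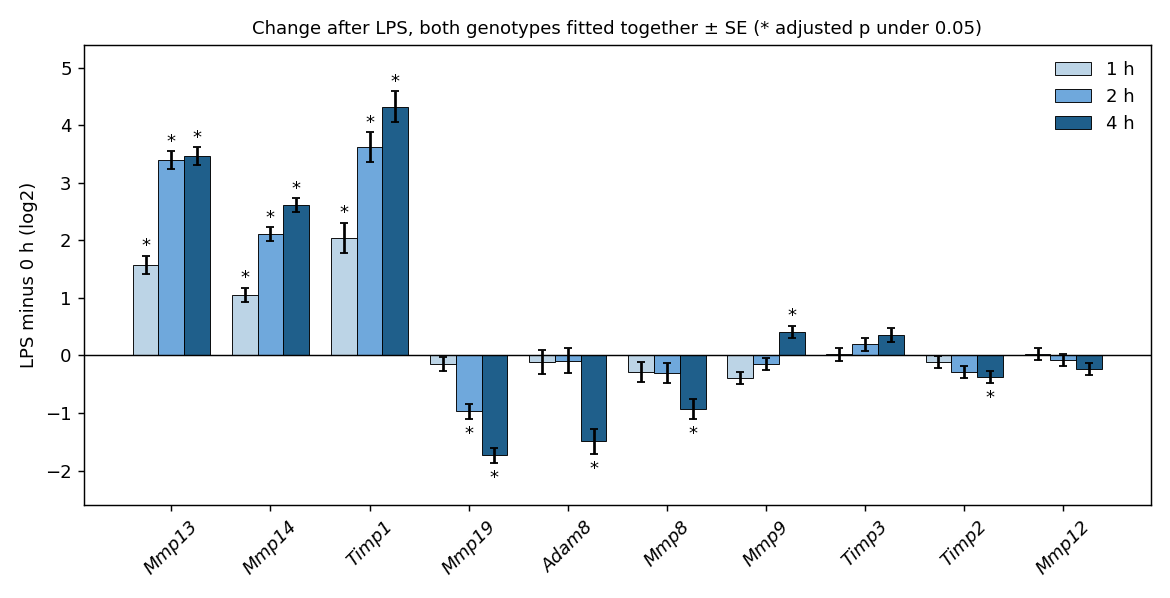
Change after 1, 2 and 4 h of LPS against 0 h (vertical axis, log2 difference) for the 10 genes, from the limma fit of all 8 arrays with genotype as a block. Bars are estimates, whiskers are SE, and stars mark adjusted p under 0.05. Timp1 reaches 4.32 and Mmp13 3.46 at 4 h, whereas Mmp19 and Adam8 lie at -1.74 and -1.49.

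Since Mmp13, Mmp14 and Timp1 rose together, the 250 bases before their annotated starts are shown. Those of Mmp8, which lies on chromosome 9 like Mmp13 and did not rise, are also shown. The sequences are RefSeq's for GRCm38.p6 and run 5′ to 3′ on the strand of the gene. The promoter table matched 8 of the 10 genes, all but Mmp9 and Mmp19. Capitals mark matches on either strand to 4 motifs. The AP-1 motif was TGANTCA. The PEA3 motif, which ETS factors bind, was AGGAAG. The TATA box was searched as TATAAA, and NF-kB by its consensus.
Mmp13, chr9:7272264-7272513, plus strand: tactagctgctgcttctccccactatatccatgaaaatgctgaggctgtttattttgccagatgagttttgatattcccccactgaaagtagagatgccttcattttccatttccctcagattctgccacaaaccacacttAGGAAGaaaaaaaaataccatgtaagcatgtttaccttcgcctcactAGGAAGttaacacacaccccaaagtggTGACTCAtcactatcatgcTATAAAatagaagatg
Timp1, chrX:20869916-20870165, plus strand: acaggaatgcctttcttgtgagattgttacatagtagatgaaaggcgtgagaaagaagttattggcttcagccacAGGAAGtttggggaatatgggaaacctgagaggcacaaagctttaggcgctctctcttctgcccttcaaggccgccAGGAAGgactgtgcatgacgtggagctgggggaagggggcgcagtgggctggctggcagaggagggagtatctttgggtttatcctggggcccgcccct
Mmp14, chr14:54431348-54431597, plus strand: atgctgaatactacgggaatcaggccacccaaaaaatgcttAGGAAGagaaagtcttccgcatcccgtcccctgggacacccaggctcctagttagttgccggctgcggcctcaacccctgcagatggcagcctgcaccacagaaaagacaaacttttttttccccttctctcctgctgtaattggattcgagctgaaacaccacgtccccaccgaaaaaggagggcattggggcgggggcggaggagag
Mmp8, chr9:7558179-7558428, plus strand: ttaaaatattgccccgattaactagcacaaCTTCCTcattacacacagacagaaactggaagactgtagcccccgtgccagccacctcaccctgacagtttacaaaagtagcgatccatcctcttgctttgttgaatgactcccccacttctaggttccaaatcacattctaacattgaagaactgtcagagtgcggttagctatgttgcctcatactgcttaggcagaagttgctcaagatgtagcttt
Over all 32851 start sites in that table, windows of the same length held the AP-1 motif in 6.75%, PEA3 in 29.5%, the TATA box in 12.4% and the NF-kB consensus in 3.9%. The Mmp13 window held the AP-1 motif 35 to 29 bases before the start, PEA3 62 to 57 and 109 to 104 bases before it, and the TATA box 16 to 11 bases before it. The Timp1 window held PEA3 at 2 places and the Mmp14 and Mmp8 windows at 1 each. Timp3 and the first of 2 Mmp12 start sites also held PEA3 once, the other Mmp12 site held the AP-1 motif, and the windows of Timp2 and Adam8 held none of these motifs. The NF-kB consensus was found in 0 of the 9 member windows. No match overlapped a match to another motif. These matches describe letters in the window and say nothing of binding.

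Genotype separated the members in both directions. By limma with time as a block, Mmp8, Mmp13 and Timp2 were higher and Mmp9, Mmp14 and Timp3 lower in the labelled-knockout arrays. These are 6 of 10 members, where the same test called 13.5% of all kept genes, 4.75% higher and 8.72% lower. The members' median difference was 0.11, beside -0.042 for all kept genes. In 4 members (Mmp8, Timp2, Mmp9 and Timp3) the 4 labelled-knockout arrays did not overlap the 4 wild-type arrays, 2 of them higher and 2 lower, as in 7.21% of all kept genes (3.2% higher and 4.01% lower).

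Mmp9 and Mmp8 differed the most on their brightest probe sets, in opposite directions. In order of time, the brighter Mmp9 probe set read 5.70, 5.34, 5.60 and 6.17 in wild type and 4.10, 3.67, 3.89 and 4.45 in labelled knockout. The highest labelled-knockout array lay below the lowest wild-type array, and the difference stayed between -1.72 and -1.60 at every time. Mmp9 was thus 3.19-fold lower, with a difference of -1.68 (SE 0.073, adjusted p = 0.000144). With the mean of both Mmp9 probe sets the difference was -1.10 (adjusted p = 0.000293). The dimmer one passed the filter through the wild-type arrays alone, so this mean is no independent support.

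Mmp8 read 6.33, 5.88, 5.84 and 5.54 in wild type and 7.84, 7.72, 7.71 and 6.78 in labelled knockout. The lowest labelled-knockout reading, at 4 h, lay above the highest wild-type reading, at 0 h. Mmp8 was 3.07-fold higher, by 1.62 (SE 0.12, adjusted p = 0.00114).

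Mmp13, whose readings are given above, was higher at each time, by 1.59, 1.44, 1.25 and 1.01 at 0, 1, 2 and 4 h. Over all arrays the readings of the genotypes overlap. The mean difference was 1.32 (SE 0.11, adjusted p = 0.00152), a 2.5-fold higher level. Mmp14 was lower at each time, by -0.75, -0.64, -0.98 and -0.84, with a mean of -0.80 (SE 0.086, adjusted p = 0.0036). Without the time block, which puts the LPS response into the error, the calls of Mmp13 and Mmp14 were lost (adjusted p = 0.855 and 0.894).

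Timp3 read 3.79, 3.95, 4.01 and 4.21 in wild type and 3.06, 2.94, 3.23 and 3.35 in labelled knockout. All 4 wild-type readings lay above background, as did 3 of the 4 labelled-knockout readings against their own arrays, though by little. The difference was -0.84 (SE 0.083, adjusted p = 0.00258), measured close to the lower limit of the array. Timp2 read 12.32, 12.15, 12.04 and 11.90 in wild type and 12.75, 12.68, 12.46 and 12.41 in labelled knockout, and was higher by 0.47 (SE 0.073, adjusted p = 0.0119). That call was lost with the mean of all Timp2 probe sets (0.11, adjusted p = 0.289), without the time block (adjusted p = 0.244) and without either 0 h array (adjusted p = 0.0561).

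The other 4 members did not pass. The Timp1 difference went from 1.21 at 0 h to 0.088 at 4 h, and such a change counts as error in this fit. Timp1 differed by 0.51 (SE 0.19, adjusted p = 0.125), Adam8 by 0.15 (SE 0.15, adjusted p = 0.529), Mmp12 by 0.070 (SE 0.074, adjusted p = 0.552) and Mmp19 by -0.18 (SE 0.091, adjusted p = 0.219).

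**Figure D3:**
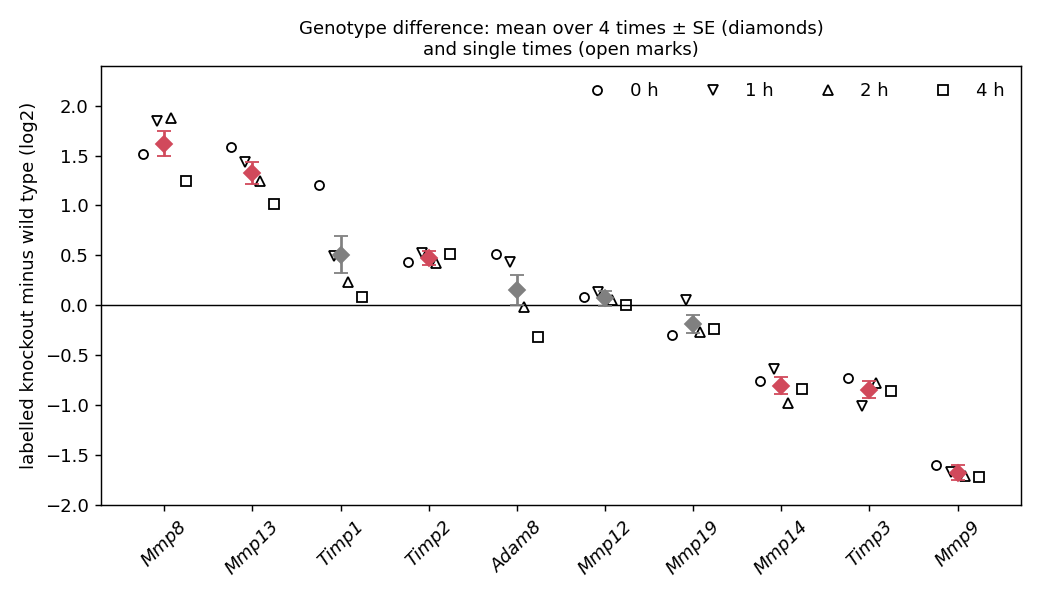
Labelled knockout minus wild type (vertical axis, log2 difference) for each of the 10 genes. Diamonds with whiskers are the limma mean over 4 times ± SE, red where adjusted p was under 0.05 and grey elsewhere, and open marks are the differences at single times. Of the called genes, Mmp8, Mmp13 and Timp2 lie above 0 and Mmp9, Timp3 and Mmp14 below it at all 4 times. The Timp1 difference, not called, runs from 1.21 at 0 h to 0.088 at 4 h.

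Markers of other cells moved with the genotype too, where 13.5% of all kept genes were called (4.75% higher and 8.72% lower). In bulk RNA, fewer cells of a type and less RNA per cell cannot be told apart. Of 10 measured mesothelial and stromal markers, 8 were lower in labelled knockout and 0 higher, of which Pdgfrb passed the filter through the wild-type arrays alone. The log2 of their summed level lay between 8.99 and 9.62 there, against 10.62 to 11.03 in wild type, with the mesothelial genes Msln and Krt19 at or below background on all arrays. Mmp9, Mmp14 and Timp3 were lower in the same arrays. All 10 resident peritoneal macrophage markers were higher, with sums of 13.77 to 13.87 against 11.74 to 12, as were Mmp8 and Mmp13. Of 6 measured neutrophil markers, S100a9 was higher, with a difference of 3.12, and Csf3r lower, with -1.10. Over the times the neutrophil sums of the genotypes overlapped (10.69 to 11.99 in labelled knockout and 10.55 to 11.87 in wild type). At each single time the labelled-knockout sum was the higher (10.69, 10.97, 11.57 and 11.99 against 10.55, 10.65, 11.34 and 11.87). The brightest gene of these sums, S100a8, rose by 1.39 at 4 h of LPS and was not called for genotype. The neutrophil granule genes Ltf and Elane and the receptor gene Cxcr2 were at or below background on all 8 arrays. Other granule genes were detected. Camp was above background on all 8 arrays. Ngp, Prtn3 and Mpo were so on 4, 3 and 2 labelled-knockout arrays and on 1, 2 and 0 wild-type arrays. The differences of Ngp (0.78), Prtn3 (0.64) and Camp (-0.12) were not called, and Mpo did not pass the filter. Of 4 measured mast cell markers, Cpa3 and Cma1 were lower. Cma1 passed the filter through the wild-type arrays alone, with 1 of 4 labelled-knockout readings above background. The mast cell sum lay between 5.32 and 5.51 against 5.73 to 6.57, with Mcpt4 at or below background on all arrays. Of 3 measured B cell markers Ighm was higher by 3.68, while Cd79a and Ms4a1 were not called. The second-highest Cd79a reading was 3.65 in wild type and 3.33 in labelled knockout, and that of Ms4a1 3.37 and 3.63. Of 2 measured T and NK cell markers Cd3e was higher by 0.89, while Cd2 was not called. Cd2 was above background on 2 wild-type and 0 labelled-knockout arrays. The B cell sum was 8.84 to 9.52 in labelled knockout against 6.33 to 6.46 in wild type. The T and NK cell sum was 6.08 to 6.69 against 5.74 to 5.83. To both sums the brightest genes add the most. Pax5 and Cd3g were at or below background throughout. Eosinophil and dendritic cell markers had 1 and 2 measured genes, 0 of them called for genotype, and sums that overlapped between genotypes. These were 5.80 to 6.30 in labelled knockout against 5.75 to 6.20 for eosinophils, and 5.66 to 6.15 against 5.43 to 5.89 for dendritic cells. Prg2, Ccr3, Il5ra, Xcr1 and Ccr7 were at or below background throughout. RNA quality was read from the Actb controls as the level at the 3′ end less that at the 5′ end, and this gap was wider in labelled knockout at all 4 times (3.11, 2.61, 2.52 and 2.30 against 2.64, 2.35, 2.43 and 2.16). The same gap of the Gapdh controls was wider at 0 h (3.31 against 3.01) and narrower at the other times (2.95, 3.04 and 2.90 against 2.99, 3.16 and 2.98). The part of these markers and of RNA quality in the differences of the members was not tested.

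At single times, where each value rests on 2 arrays and has no test, 4 members were at least 2-fold apart at 0 h. Mmp8, Mmp13 and Timp1 (1.21) were higher in labelled knockout and Mmp9 lower, where 3.78% of kept genes were that far apart (2.08% higher and 1.7% lower). At 1 h Mmp8, Mmp13, Mmp9 and Timp3 (-1.01) were, beside 3.37% of genes (2.02% and 1.35%). The labelled-knockout reading of Timp3 at 1 h (2.94) lay below the background of its array (3.10), so whether Timp3 was 2-fold apart is not known. At 2 and 4 h Mmp8, Mmp13 and Mmp9 were past 2-fold as deposited, beside 4.81% (1.97% and 2.84%) and 3.88% (1.67% and 2.2%) of genes. Mmp13 lay at the edge at 4 h, with 1.01.

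A limma interaction term tested for a genotype difference that changes after LPS. It called 0 of 10 members and 0% of all kept genes, while 434 genes (3.46%), 1 member among them, had an unadjusted p under 0.05. With trend and robust settings 15 genes and 0 members passed. The member was Timp1, with a change of -0.93 (SE 0.24, adjusted p = 1 by limma). Timp1 went from 6.25 to 11.13 in wild type, a 29.5-fold rise over 4 h, and from 7.45 to 11.22 in labelled knockout, a 13.6-fold rise. The genotypes were therefore 1.21 apart before LPS and 0.088 apart at 4 h, without passing the test. The next smallest p-values were those of Mmp13 (-0.36, SE 0.24, adjusted p = 1) and Adam8 (-0.48, SE 0.33, adjusted p = 1). For Adam8, labelled knockout differed from wild type by 0.51 at 0 h and by -0.32 at 4 h. Over the 3 LPS times without 0 h, Mmp8, Mmp13, Mmp9, Mmp14 and Timp3 still passed, with differences of 1.65, 1.23, -1.70, -0.82 and -0.88 (adjusted p between 0.00279 and 0.0246).

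Where a gene had several probe sets, each was also tested on its own, a choice made after seeing the data. All 3 Mmp14 probe sets rose at 4 h, by 2.61, 3.09 and 1.52 from brightest to dimmest. Their genotype differences were -0.80, -0.85 and -0.81, and the dimmest did not pass (adjusted p = 0.118). The second Mmp9 probe set read 2.77 to 3.23 in labelled knockout and 3.39 to 3.73 in wild type. It passed the filter through the wild-type arrays alone, with 2 of 4 labelled-knockout readings above background, and adds no independent size to the difference. Of 4 Timp3 probe sets, 3 passed the filter, but the dimmer ones only through the wild-type arrays. The first of these read 3.09 to 3.21 in labelled knockout and 3.41 to 3.75 in wild type. The other read 3.38 to 3.82 in wild type and at or below background on all 4 labelled-knockout arrays, so no size is given.

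The Timp2 probe sets disagreed. The second brightest read 9.76, 9.49, 8.97 and 8.13 in wild type and 9.83, 9.50, 9.0 and 8.15 in labelled knockout. On it Timp2 fell by 1.65 at 4 h (adjusted p = 6.94e-05), against 0.38 on the brightest probe set, and the genotypes differed by only 0.031 (adjusted p = 0.825). The third brightest fell by 1.41 and the fourth by 0.72 at 4 h, and neither passed for genotype (0.058 and 0.32). The higher Timp2 level in labelled knockout thus rests on the brightest probe set. The second Mmp19 probe set lay at or below background on 7 of 8 arrays and adds nothing.

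**Figure D4:**
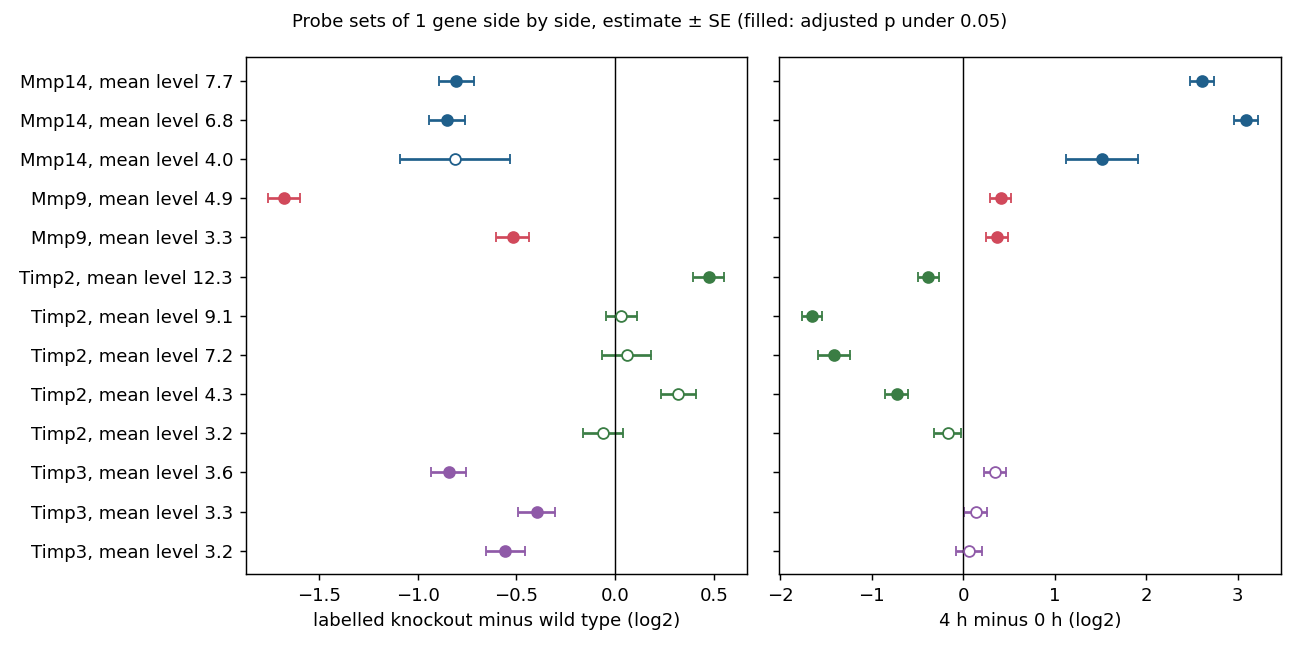
Estimates by probe set for the 4 genes with more than 1 probe set past the filter, ordered within each gene by mean level (log2 RMA value, at left). The left panel gives labelled knockout minus wild type and the right panel 4 h minus 0 h (log2 differences), as limma estimates ± SE, filled where adjusted p was under 0.05. The Timp2 probe sets spread from -1.65 to -0.17 at 4 h, whereas those of Mmp14 share 1 direction in both panels. The dimmer Mmp9 probe set and the dimmer Timp3 probe sets passed the filter through the wild-type arrays alone, so their left-panel estimates give no size.

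Of a list of 18 genes, the other MMPs and Timp4, 13 were on the array and 6 passed the filter. Of these 1 was called between genotypes and 2 at 4 h, beside 13.5% and 43.8% of all kept genes. Mmp2, gelatinase A, whose precursor MMP14 activates, read 3.17, 3.13, 3.21 and 4.83 in wild type and 2.83, 3.06, 3.18 and 5.84 in labelled knockout. It rose by 2.34 in the fit of 4 h against 0 h (adjusted p = 0.0013), where 1 of 2 untreated readings lay above background, as did both 4 h readings. Mmp24, another membrane-type enzyme, fell by 0.44 at 4 h (adjusted p = 0.013). Mmp23 read 3.95 to 4.46 in wild type and 2.70 to 3.28 in labelled knockout. It passed the filter through the wild-type arrays alone, and 2 of 4 labelled-knockout readings lay above background, so no size is given. Mmp13, Mmp12 and Mmp8 lie on chromosome 9, where Mmp1b, Mmp3, Mmp1a and Mmp10 come between Mmp12 and Mmp8 in the gene order of GRCm38.p6. Of these, Mmp1a and Mmp1b were at or below background on all 8 arrays, and Mmp3 and Mmp10 did not exceed 3.21 and 3.48. Over the 8 arrays Mmp13 spanned 4.81, Mmp8 2.31 and Mmp12 0.33.

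Of 15 other ADAM and ADAMTS protease genes, 12 passed the filter, and 2 rose and 2 fell at 4 h, where 43.8% of all kept genes were called. Between genotypes 2 were called, beside 13.5% of all kept genes. Adam12 and Adamts9 were lower in labelled knockout, with differences of -1.12 and -1.05 (adjusted p = 0.0133 and 0.0311). At 4 h Adamts4, an aggrecan-cleaving enzyme, rose by 2.62 (adjusted p = 0.00423), with 1 of 2 readings at 0 h above background, and Adamts15 by 0.33 (adjusted p = 0.0489, likewise 1 of 2), while Adam10 fell by 0.75 (adjusted p = 0.00167) and Adam15 fell by 0.80 (adjusted p = 0.00201).

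Of 17 measured activators, inhibitors and surface partners, 7 rose and 2 fell at 4 h, and 3 were higher and 0 lower in labelled knockout. The shares of all kept genes called were 43.8% and 13.5%. At 1 h the urokinase receptor gene Plaur rose by 1.61, the plasminogen activator gene Plat by 1.61 and the urokinase inhibitor gene Serpinb2 by 2.77 (adjusted p = 0.00188, 0.00126 and 0.0208), Plat with 1 of 2 readings at 0 h above background. The urokinase gene Plau differed by 1.10 (adjusted p = 0.106), which did not pass, and is named after its value was seen. At 4 h the MMP9 docking receptor gene Cd44 rose by 1.10, Rhbdf2, needed for ADAM17 maturation, by 2.47, and the MMP clearance receptor gene Lrp1 fell by 1.15 (adjusted p = 0.000568, 0.000574 and 0.000468). Serpinb2 and Thbs1 were higher in labelled knockout by 2.68 and 0.80 (adjusted p = 0.00767 and 0.0403). Sfrp1, the other called gene, passed the filter through the labelled-knockout arrays alone (3.57 to 4.22 against 3.01 to 3.28). Lcn2, whose protein binds MMP9, was chosen after its values were seen. It read 4.69, 4.07, 8.10 and 10.82 in wild type and 11.02, 10.84, 10.91 and 11.27 in labelled knockout, a mean difference of 4.09 (SE 1.04, adjusted p = 0.0511).

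Of 9 measured matrix and surface substrates, 3 rose at 4 h and 0 fell, beside 43.8% of all kept genes called. The proteoglycan gene Vcan rose by 5.52, Sdc4 by 3.49 and the adhesion receptor gene Icam1 by 4.13 (adjusted p = 1.79e-05, 1.39e-05 and 4.49e-06). Between genotypes, where 13.5% of all kept genes were called, Sdc1, Nid1 and Icam1 were lower in labelled knockout, with differences of -1.02, -1.51 and -0.59. Vcan was higher by 0.73 and Fn1, named after its values were seen, by 0.38. Of 18 measured AP-1, ETS, NF-kB, RUNX and related transcription factor genes, 11 rose and 0 fell at 1 h, where 10.5% of all kept genes were called. At 4 h 10 rose and 2 fell, beside 43.8% of all kept genes called. Nfkb2, Rel and Ets2 were higher by 4.38, 3.59 and 2.00 (adjusted p = 4.49e-06, 3.62e-05 and 6.9e-05). Between genotypes 1 of the 18 passed, beside 13.5% of all kept genes. This was the ETS factor gene Elk3, lower in labelled knockout with a difference of -0.66 (adjusted p = 0.0043).

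For each member, the 2 genes of most similar profile over the 8 arrays were taken by Pearson correlation, among 5680 kept genes that spanned at least 1 log2 unit. The arrays share their times and genotypes, so these values are descriptions. Timp1 ran closest to Fpr2 (0.996) and Gbp3 (0.993), Mmp13 to Cav1 (0.988) and Adhfe1 (0.981), and Mmp14 to H2-Q5 and Mcoln2 (0.986 each). Mmp8 ran closest to Serpinb1a (0.995) and Alox15 (0.992), the latter also a resident macrophage marker. Timp3 ran closest to the basement membrane collagen gene Col4a2 (0.984) and F2r (0.978), and Mmp9 to Rps6 and Csrp2 (0.972 each). Mmp19 followed Dnah11 (0.997) and Snx5 (0.995), Adam8 Grk5 (0.985) and Snx7 (0.984), Timp2 Chchd10 (0.995) and Pros1 (0.984), and Mmp12 Etl4 (0.99) and Nubpl (0.987). Among the members themselves, Mmp13 and Timp1 correlated at 0.949, Mmp9 and Timp3 at 0.968 and Mmp8 and Timp2 at 0.948. Mmp8 ran opposite to Timp3 (-0.974) and Mmp9 (-0.948), and Mmp19 opposite to Timp1 (-0.898).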

How the data were processed

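RNA of 8 samples, 1 for each genotype and time, was hybridised to Affymetrix arrays. The authors deposited log2 values for 45101 probe sets, and RMA (background correction, quantile normalization and probe summary) is named per the submitters' processing notes, its version not given in the sources used here. Quantile normalization hides a change in total mRNA. The number of arrays limits the precision. Of the probe sets, 34958 had 1 gene symbol in the platform annotation, 932 had several and 9211 are not named here. Of the first, 34754 matched the RefSeq table of GRCm38.p6 by Entrez identifier.

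Each gene was represented by its single-symbol probe set of highest mean, and kept when its second-highest array reached 3.16, the median of all values. limma 3.58.1 (R 4.3.3) was fitted across 12540 genes, additively in time and genotype (3 residual degrees of freedom) and with an interaction after LPS (2), with Benjamini-Hochberg adjustment at 0.05. Errors are moderated SE. Background was the highest of 27 bacterial control probe sets per array, 2.96 to 3.26. The fits were also run on simulated data with independent noise and set differences, which checks the code and not the error of these arrays. Marker sums add linear values and are given as log2. The members and lists were chosen with earlier results of these data known. Named genes were all members, the 3 genes of smallest p per list for genotype and for 4 h, all called genes of lists with 4 or fewer, and the 2 nearest profiles. Alternatives were other scaling, filters, probe set rules, variance settings and leaving out each array.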

Additional observations from a re-analysis of the deposited data

How the results depend on the processing

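Over the 5 comparisons, 21 member results passed the threshold, and 15 of them kept their direction and stayed past it under every alternative run other than single probe sets, of which the dimmest for Mmp14 did not pass at 1 and 2 h. The number of arrays limits the precision, and Timp3 was measured near background. The count of members called for genotype was 3 without the time block instead of 6, and between 5 and 6 when 1 array was left out. At 4 h it was between 5 and 8 when 1 array was left out, with 5 without the wild-type 0 h array, instead of 8. The counts at 1 h (3) and 2 h (4) and the interaction count (0) were the same without each array. At 1 h the count was 4 with the filter at the 75th percentile. At 2 h it was 5 with that filter, centring on housekeeping genes, the mean of probe sets, and trend and robust settings. Members at least 2-fold apart between genotypes at a single time numbered 3 at 1 h and 4 at 4 h with the mean of probe sets, and 4 at 2 h and 2 at 4 h after that centring. The count of all genes called for genotype was 1690, against 150 without the time block, 597 without 0 h or either 0 h array, 700 without either 2 h and 942 without either 4 h array. At 1 h it was 1313, against 559, 810, 454 and 501 without the labelled-knockout 0 h and 1 h and the wild-type 0 h and 1 h arrays. At 2 h it was 5239, against 3375, 3206 and 3141 without the labelled-knockout 0 h and 2 h and the wild-type 0 h arrays. The interaction called 15 genes with trend and robust settings and 6 without either 1 h array. It has no value with a 0 h array left out, since that fit cannot be made.

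Other scalings and leaving out 1 array gave 23 reversals, and 1 was of a called result, Timp2 at 4 h, which was 0.020 after centring on housekeeping genes. The others were of values that had not passed. That centring gave 0.031 and 0.23 for Adam8 at 1 and 2 h, 0.25 and 0.16 for Mmp12 at 2 and 4 h, 0.018 for Mmp8 and 0.17 for Mmp9 at 2 h, 0.027 and 0.041 for Timp2 at 1 and 2 h and -0.0026 for the Timp2 interaction. Cyclic loess gave 0.15 for Mmp9 at 2 h. On other probe sets, Mmp9 at 1 h was 0.22 and Timp2 was 0.055 at 2 h, both not called before, and Timp2 for genotype, which had been called, was -0.062. Without 1 array, Adam8 ranged from -0.35 to 0.13 at 1 h and -0.33 to 0.15 at 2 h, Mmp12 from -0.023 to 0.066 at 1 h, Mmp19 from -0.31 to 0.014 at 1 h and Timp3 from -0.091 to 0.13 at 1 h. The interaction ranged from -0.061 to 0.0069 for Mmp12 and -0.15 to 0.015 for Mmp14. Timp3 has no value under the filter at the 75th percentile, which it did not pass. No paired analysis was possible because no replicate number pairs the arrays, each group holding 1. The genotype comparison already pairs the arrays of each time through the time block.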
